A study of Mus musculus with 22 samples.

Results

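Heat shock proteins and their J-protein partners form the main chaperone system of the heart muscle cell, and their transcripts were followed here in the ventricles of newborn mice after the pulmonary artery was narrowed. The genes were chosen by symbol: the mouse GENCODE annotation of mm10 gave 76 protein-coding genes named Hspa, Hspb, Hsp90, Hspd1, Hspe1, Hsph1, Dnaja, Dnajb or Dnajc with a number, together with Cryab, Bag3, Hsf1 and Hsf2. All 76 were measured in the right ventricle (RV) and in the left ventricle (LV), among 49670 and 49671 genes. With a minimum mean normalised read count of 10, 67 of the 76 were kept among 13660 genes in the RV and 66 among 13528 in the LV. Hspa1b was kept in the RV only. The 9 genes below the minimum in both ventricles were Dnajb3, Dnajb7, Dnajb8, Dnajb13, Dnajc5b, Dnajc5g, Dnajc6, Dnajc22 and Hspb9.

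CD1 mice underwent neonatal pulmonary artery banding (nPAB), sized with a 30G needle, or a Sham operation on postnatal day 1, and both ventricles were collected 7 days later. RNA from bulk RV and LV myocardium of 6 nPAB mice (numbered 5, 6, 7, 8, 10 and 11) and 5 Sham mice (numbered 9 to 13) gave 22 libraries. No transgene or deletion is named in the labels, and every library carries the same batch label. Banding loads the RV directly, so the RV comparison follows the loaded ventricle and the LV comparison the contralateral one.

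Small heat shock proteins hold unfolding proteins in a soluble state without using ATP. HSP70 proteins bind and release clients in an ATP cycle that J proteins start and nucleotide exchange factors reset, and HSP90 proteins finish the folding of kinases, receptors and myosin. Heat shock factors switch these genes on through heat shock elements (HSE) when cytosolic proteins unfold, whereas chaperones of the endoplasmic reticulum (ER) answer to a separate unfolded protein response through ER stress response elements (ERSE). In heart muscle the small heat shock proteins sit largely at the Z-disc and on desmin and filamin, where BAG3 links them to HSP70 and to autophagy.

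The promoter windows of 8 members are printed as examples with and without these elements. They include genes that rose, genes that fell, and genes that did neither (Dnajc3, Hspe1 and Hsph1). Counts over all members with a window are given further below. RefSeq windows on GRCm38.p6, of 300 bases with 250 before and 50 after the annotated start, were matched to 53 of the 67 members kept. They are written 5′ to 3′ on the strand of the gene, with motif letters in capitals. For Hspa5, Hsp90b1 and Dnajc3 the capitals mark an ERSE (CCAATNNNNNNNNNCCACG on either strand), and for Hspe1, Hsph1, Hspb1 and Hspb8 they mark HSE letters (GAANNTTC or TTCNNGAA). Hspb7 holds neither.
Hspa5: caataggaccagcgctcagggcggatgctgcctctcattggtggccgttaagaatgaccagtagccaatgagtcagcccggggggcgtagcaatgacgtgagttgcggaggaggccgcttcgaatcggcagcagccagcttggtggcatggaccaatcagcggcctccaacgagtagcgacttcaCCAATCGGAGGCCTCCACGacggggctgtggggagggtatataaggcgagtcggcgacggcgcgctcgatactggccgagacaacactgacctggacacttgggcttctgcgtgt
Hsp90b1: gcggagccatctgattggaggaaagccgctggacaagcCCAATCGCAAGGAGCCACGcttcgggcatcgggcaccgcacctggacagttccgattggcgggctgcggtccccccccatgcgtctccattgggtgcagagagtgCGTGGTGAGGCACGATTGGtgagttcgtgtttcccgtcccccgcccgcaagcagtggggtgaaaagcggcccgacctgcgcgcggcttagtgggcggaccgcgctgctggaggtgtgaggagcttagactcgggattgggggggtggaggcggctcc
Dnajc3: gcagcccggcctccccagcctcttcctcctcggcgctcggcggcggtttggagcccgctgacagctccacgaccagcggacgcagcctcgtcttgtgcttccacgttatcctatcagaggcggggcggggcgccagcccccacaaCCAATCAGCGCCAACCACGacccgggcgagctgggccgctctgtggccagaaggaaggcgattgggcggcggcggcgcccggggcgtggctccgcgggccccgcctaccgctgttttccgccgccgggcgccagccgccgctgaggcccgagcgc
Hspe1: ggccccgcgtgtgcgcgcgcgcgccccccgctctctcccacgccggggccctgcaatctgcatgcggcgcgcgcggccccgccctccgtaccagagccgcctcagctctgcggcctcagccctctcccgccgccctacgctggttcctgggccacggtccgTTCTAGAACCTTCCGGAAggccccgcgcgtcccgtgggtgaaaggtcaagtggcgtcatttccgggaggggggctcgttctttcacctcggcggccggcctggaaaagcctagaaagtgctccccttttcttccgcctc
Hsph1: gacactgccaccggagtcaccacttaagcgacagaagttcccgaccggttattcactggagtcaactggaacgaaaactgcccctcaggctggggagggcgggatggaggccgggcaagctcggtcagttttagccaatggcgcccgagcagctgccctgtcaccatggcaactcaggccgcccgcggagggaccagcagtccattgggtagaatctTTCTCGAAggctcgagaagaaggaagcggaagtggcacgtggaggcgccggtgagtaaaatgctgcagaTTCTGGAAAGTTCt
Hspb1: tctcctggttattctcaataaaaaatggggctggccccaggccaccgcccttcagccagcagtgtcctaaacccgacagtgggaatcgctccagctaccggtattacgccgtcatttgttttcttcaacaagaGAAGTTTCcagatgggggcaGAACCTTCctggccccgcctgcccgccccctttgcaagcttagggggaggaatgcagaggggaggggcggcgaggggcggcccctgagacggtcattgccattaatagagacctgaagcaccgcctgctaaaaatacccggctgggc
Hspb8: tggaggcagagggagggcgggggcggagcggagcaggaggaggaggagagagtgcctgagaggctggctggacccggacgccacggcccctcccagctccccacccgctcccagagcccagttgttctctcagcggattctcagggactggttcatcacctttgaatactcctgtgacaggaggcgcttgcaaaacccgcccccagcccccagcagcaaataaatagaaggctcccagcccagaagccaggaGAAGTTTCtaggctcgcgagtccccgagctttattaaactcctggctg
Hspb7: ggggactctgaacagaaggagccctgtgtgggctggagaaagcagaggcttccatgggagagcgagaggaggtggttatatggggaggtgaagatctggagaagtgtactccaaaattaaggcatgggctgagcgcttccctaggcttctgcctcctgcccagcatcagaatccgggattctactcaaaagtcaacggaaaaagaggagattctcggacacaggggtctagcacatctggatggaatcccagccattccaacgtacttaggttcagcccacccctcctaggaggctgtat

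The windows lie at chr2:34771840-34772139 on the plus strand for Hspa5, chr10:86705395-86705694 on the minus strand for Hsp90b1 and chr14:118937682-118937981 on the plus strand for Dnajc3. Those of Hspe1 at chr1:55087898-55088197, Hspb1 at chr5:135887669-135887968 and Hspb7 at chr4:141420529-141420828 are on the plus strand, and those of Hsph1 at chr5:149636287-149636586 and Hspb8 at chr5:116422815-116423114 on the minus strand. The ERSE was found in the windows of these 3 genes only among the 53 matched members, in 4.35% of 69 member windows against 0.119% of all 32851 windows. The 2-unit HSE was found in 26.1% of member windows against 15.1% of all windows. The 3-unit form (GAANNTTCNNGAA or TTCNNGAANNTTC), which contains the 2-unit form, was found in 8.7% against 0.603%. It was held by 4 members, Dnajb6, Hspd1, Hspe1 and Hsph1. Hspd1 and Hspe1 are neighbours that start from a shared region. A match is a description of letters in this window, not evidence of a bound factor.

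The libraries held 7109050 to 11334423 reads in genes. The X-linked Xist and the Y-linked Ddx3y transcripts put both libraries of a mouse in the same sex in 9 of 11 mice. The RV and LV libraries of nPAB mice 6 and 7 were of opposite sex, so for these mice the shared number does not join libraries of 1 animal, and counts are given below with and without them. Cardiomyocyte markers were abundant in every library: the summed normalised count of 8 markers ran from 678506 to 775076 in RV Sham and from 645569 to 755398 in RV nPAB. No marker of the 8 was at 0 throughout, and in the RV Actn2 rose while Pln, Tnni3 and Ryr2 fell. The summed level of 6 fibroblast markers was 53836 to 71114 in RV Sham and 35027 to 54499 in RV nPAB, and 42575 to 51436 against 34945 to 53654 in the LV. The summed level of 5 atrial markers did not overlap in the RV, at 338 to 2923 in Sham and 3539 to 17211 in nPAB, and of these Nppa, a ventricular load marker as well, rose by 6.09 and Dkk3 by 1.06 on the log2 scale. Whether these marker levels had a part in the chaperone changes was not tested. Fewer cells of a type and less RNA per cell cannot be told apart in bulk tissue.

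In the banded RV, 24 of 67 chaperone genes changed: 19 rose and 5 fell (limma, Benjamini-Hochberg adjusted p under 0.05 over all genes tested, the threshold for every call below). That is 35.8% of the members, beside 22% of all 13660 genes. Of all genes 11.1% rose and 10.8% fell. The median log2 fold change was 0.22 over members and 0.00 over all genes, and 47 members lay above 0 and 20 below. In 18 members the nPAB and Sham libraries did not overlap, which was the case for 12.9% of all genes. In the LV 14 of 66 members changed, 10 upward and 4 downward, or 21.2% beside 9.31% of all 13528 genes. Of all LV genes 4.76% rose and 4.55% fell, and the members' median was 0.13 beside -0.01 over all genes. The LV groups did not overlap in 7 members, beside 6.53% of all genes.

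The same direction was called in both ventricles for 12 members. Hspb1, Hspb6, Hspb7, Hspb8, Cryab, Hsp90aa1, Dnajb4 and Dnajb5 rose in both, and Hspa5, Hsp90b1, Hspa12a and Dnajc28 fell in both. A further 11 rose and 1 fell in the RV alone by the call, 2 rose in the LV alone, and no member was called in opposite directions. Being called in 1 ventricle and not in the other is not a tested difference, which is taken up below. Without nPAB mice 6 and 7, 25 members were called in the RV, among them 21 of the 24, and 6 in the LV, among them 5 of the 14. The 5 LV calls that stayed were Cryab, Hspb6, Hspb7, Hspb8 and Dnajc28. The tests within a ventricle do not use the pairing, and leaving out these mice also leaves fewer nPAB libraries. Without Sham mouse 12 alone, 7 of the 14 LV calls stayed.

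**Figure D1:**
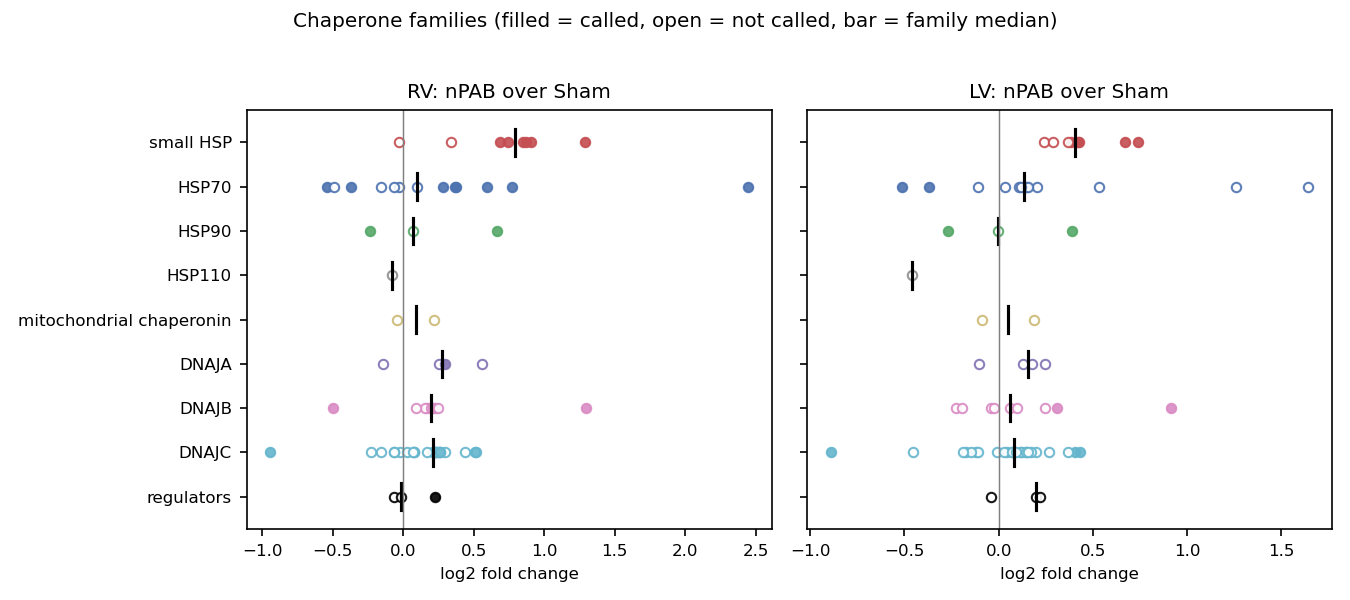
Log2 fold change of nPAB over Sham for each member, by family (grouped by symbol), in the RV (left) and the LV (right). Each point is 1 gene, filled where it was called, and the black bar is the family median. Small heat shock proteins lie to the right of 0 in both ventricles, except Hspb2 at -0.03 in the RV. Their medians are 0.80 and 0.40. The other families hold genes on both sides of 0, except HSP110, with 1 gene below 0 in both. Of the J proteins 29 lie above 0 and 8 below in the RV, and 24 and 13 in the LV.

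The small heat shock proteins had the highest median of the families in each ventricle. In the RV 6 of 8 rose and none fell, with a median log2 fold change of 0.80, and in the LV 5 of 8 rose and none fell, with a median of 0.40. The called share was 75% beside 22% of all RV genes, and 62.5% beside 9.31% of all LV genes. All 6 RV calls and 4 of the 5 LV calls stayed without nPAB mice 6 and 7. The summed cardiomyocyte markers overlapped between the groups in the RV, as given above, and in the LV, at 743696 to 850399 in Sham and 714421 to 939074 in nPAB. Of the 8 markers 1 rose and 3 fell in the RV, and 1 (Actn2, 0.28) rose in the LV.

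Hspb7, a small heat shock protein of heart and skeletal muscle that binds filamin C, was the most abundant member. The gene (ENSMUSG00000006221) spans chr4:141420779-141425311 of mm10. Its normalised read count in the 5 RV Sham libraries was 34929, 35622, 36768, 38925 and 39929. In the 6 RV nPAB libraries it ran from 50314 through a median of 63768 to 72608. Every banded RV lay above every Sham RV, and the log2 fold change was 0.74 ± 0.09 (SE, limma adjusted p = 1.66e-05). In the LV the Sham values were 41150, 42909, 44121, 45363 and 49613, and the nPAB values ran from 51455 through 58349 to 75401. These groups did not overlap either, at 0.43 ± 0.09 (limma adjusted p = 0.00471).

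Cryab encodes alpha-B crystallin, which protects desmin and other filaments. The gene (ENSMUSG00000032060) lies at chr9:50751325-50756636. RV Sham libraries held 9938, 10688, 10720, 10922 and 11158 normalised reads, a narrow band. RV nPAB libraries ran from 14388 through 20255 to 28143, so the banded group was higher and also much more spread out. The RV log2 fold change was 0.87 ± 0.13 (limma adjusted p = 2.57e-04). In the LV the Sham values were 10470, 11637, 11732, 12148 and 12232, and the nPAB values 14034 to 16977 with a median of 15562. The LV groups were again separate, at 0.42 ± 0.06 (limma adjusted p = 5.18e-04). Cryab and Hspb2 start head to head and their gene bounds overlap by 1030 bases on opposite strands. Whether reads were counted by strand is not stated in the labels, so reads in the overlap cannot be assigned.

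Hspb6, a partner of BAG3 that is phosphorylated in the beating heart, had the largest fold change of the family. The RV Sham values were 4082, 4300, 4932, 5098 and 5286, against 8323 to 17172 with a median of 11396 in RV nPAB. The banded RVs were all higher, with a log2 fold change of 1.29 ± 0.18 (limma adjusted p = 3.31e-04). The LV Sham values were 4683, 5164, 5600, 6290 and 6585, against 7623 to 13181 with a median of 9191 in LV nPAB. The LV log2 fold change was 0.74 ± 0.13 (limma adjusted p = 0.00281), again without overlap.

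Hspb1 encodes an actin-stabilising small heat shock protein, and its window printed above holds 2 HSE matches. RV Sham values were 2226, 2241, 2371, 2385 and 2755, and RV nPAB values ran from 3335 through 4637 to 5874. The RV groups did not overlap and the log2 fold change was 0.90 ± 0.13 (limma adjusted p = 1.85e-04). In the LV the values were 2266, 2336, 2646, 2691 and 2691 in Sham and 2714 to 4478 in nPAB, so the groups nearly touched. The LV call, 0.39 ± 0.12 (limma adjusted p = 0.0447), held under 10 of 23 alternatives and was lost with the mouse as a block (0.39, adjusted p = 0.0562) and without mice 6 and 7 (0.25, adjusted p = 0.144).

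Hspb8 forms the complex with BAG3 that hands damaged filamin to autophagy. RV Sham values were 660, 818, 887, 908 and 1107, against 1212 to 2234 with a median of 1429 in RV nPAB. The RV groups did not overlap, at 0.85 ± 0.16 (limma adjusted p = 0.00166). In the LV the Sham range of 687 to 975 reached into the nPAB range of 895 to 1558, at 0.67 ± 0.14 (limma adjusted p = 0.00911).

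Hspb11 is named with the family but is known as a subunit of intraflagellar transport in cilia. It rose in the RV from 48.1 to 84.4 in Sham to 107 to 127 in nPAB, at 0.68 ± 0.18 (limma adjusted p = 0.00861), at a level near the bottom of the family. In the LV it was not called, at 0.24 ± 0.20 (limma adjusted p = 0.504). The muscle proteins Hspb3 and Hspb2 were not called in either ventricle. Hspb3 had log2 fold changes of 0.34 in the RV and 0.37 in the LV (limma adjusted p = 0.0755 and 0.0702), and Hspb2 -0.03 and 0.29.

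**Figure D2:**
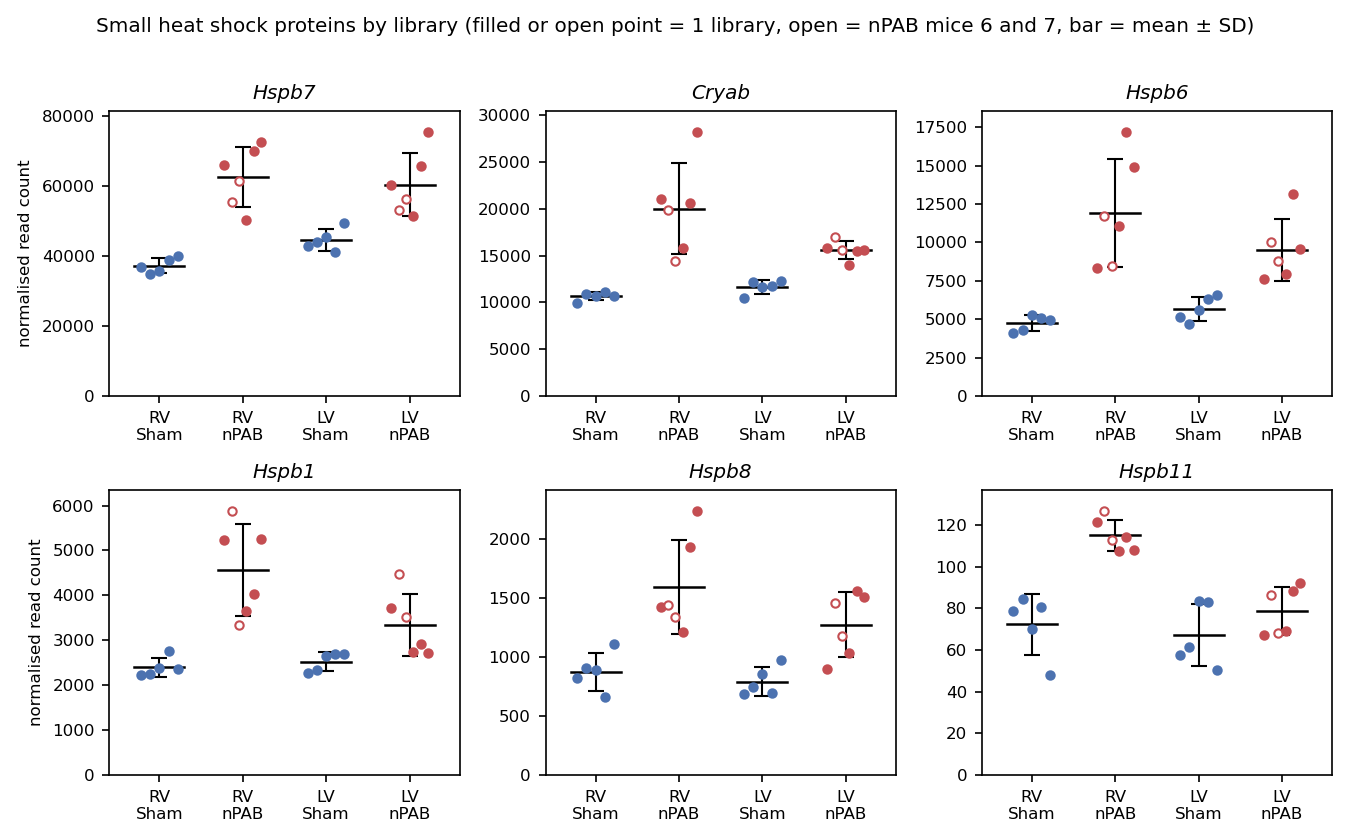
Normalised read count (linear axes from 0) of 6 small heat shock protein genes in RV Sham, RV nPAB, LV Sham and LV nPAB. Points are libraries (5 Sham, 6 nPAB), open points are nPAB mice 6 and 7, and black bars show mean ± SD. In the RV all 6 nPAB libraries lie above all 5 Sham libraries in each panel.

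Of 13 Hspa genes, grouped here as HSP70 by symbol alone, 6 rose and 2 fell in the RV. Of 12 in the LV none rose and 2 fell. The called share was 61.5% beside 22% of all RV genes, and 16.7% beside 9.31% of all LV genes. Hspa4 and Hspa4l, which act as nucleotide exchange factors of the cytosolic HSP70 cycle and are counted here by symbol, rose in the RV. Hspa4l values were 964, 1047, 1135, 1200 and 1288 in RV Sham and 1457 to 1865 with a median of 1752 in RV nPAB. The groups did not overlap, at 0.59 ± 0.09 (limma adjusted p = 1.55e-04). In the LV the Hspa4l values were 1006 to 1215 in Sham and 1021 to 1669 in nPAB, largely overlapping, at 0.15 ± 0.11 (limma adjusted p = 0.431). Hspa4 ran from 2257 to 2615 in RV Sham and 2883 to 3480 in RV nPAB, at 0.38 ± 0.07 (limma adjusted p = 0.00117). Its LV log2 fold change was 0.21 (limma adjusted p = 0.0651).

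Hspa8, the constitutive cytosolic HSP70, clears and refolds clients in unstressed cells. Its RV Sham values were 5033, 5108, 5174, 5179 and 5345, and RV nPAB values ran from 5409 through 6310 to 7170. The change was small but the groups were separate, at 0.28 ± 0.08 (limma adjusted p = 0.0184). Its LV value of 0.16 was not called (limma adjusted p = 0.147).

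The inducible HSP70 genes Hspa1a and Hspa1b, the usual readout of a heat shock response, were close to the detection limit in both groups. Hspa1a values were 10.6 to 25.5 in RV Sham and 6.51 to 28.7 in RV nPAB, and 0 to 23.3 and 6.9 to 26.6 in the LV. Hspa1b values were 4.7 to 22.2 in RV Sham and 4.63 to 15.3 in RV nPAB. Neither was called in the RV, with limma adjusted p of 0.835 and 0.521. In the LV Hspa1a had a large but imprecise log2 fold change of 1.26 ± 0.68 and was not called (limma adjusted p = 0.265). Hspa1b was below the minimum mean there and was not tested. The 2 genes are near-identical copies, and how the authors' counting splits their reads is not given in the sources used here.

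Hspa2 and Hspa1l, both best known from the testis, rose in the RV from low counts. Hspa2 was 38.7 to 55.4 in RV Sham and 66.1 to 109 in RV nPAB, at 0.77 ± 0.20 (limma adjusted p = 0.00975). Hspa1l had the largest fold change of all members, 2.44 ± 0.60 on the log2(count + 1) scale (limma adjusted p = 0.00685). That value rests on 0 to 8.5 normalised reads in RV Sham against 6.51 to 32 in RV nPAB, and the ranges overlap. In the LV Hspa1l was not called (1.64, limma adjusted p = 0.106).

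The divergent HSP70 relatives went in different directions in the RV. Hspa12b, known from endothelium, rose by 0.37 on the log2 scale (limma adjusted p = 0.0185). This call was lost without nPAB mice 6 and 7 (0.35, adjusted p = 0.0552) and without Sham mouse 11. Hspa12a fell by 0.54 on the log2 scale in the RV and by 0.52 in the LV (limma adjusted p = 0.0187 and 0.0172). RV Sham values of Hspa12a were 345, 375, 477, 539 and 606, and RV nPAB values 229 to 393, so the groups overlapped. Its call was lost without Sham mouse 12 in each ventricle (adjusted p = 0.0595 and 0.0540), without Sham mouse 13 in the RV (0.053), and without mice 6 and 7 in the LV (0.0902). Hspa9, the HSP70 of the mitochondrial matrix, held 4572 to 5097 normalised reads in RV Sham and 4392 to 6084 in RV nPAB. Hspa9, Hspa13 and Hspa14 were not called, with log2 fold changes between -0.11 and 0.12 in the 2 ventricles.

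The 3 HSP90 genes split by isoform and compartment. Hsp90aa1, the stress-responsive cytosolic isoform, rose. RV Sham values were 1215, 1321, 1408, 1682 and 1730, and RV nPAB values ran from 2008 through 2357 to 2655, without overlap, at 0.66 ± 0.10 (limma adjusted p = 1.13e-04). LV values were 1281 to 1896 in Sham and 1652 to 2199 in nPAB, at 0.39 ± 0.10 (limma adjusted p = 0.0163). The LV call was lost without mice 6 and 7 (0.33, adjusted p = 0.0776), without Sham mouse 9 and without Sham mouse 12. Hsp90ab1, the constitutive and more abundant cytosolic isoform, was 7636 to 8509 in RV Sham and 7680 to 9644 in RV nPAB. Its log2 fold changes of 0.07 ± 0.08 in the RV and -0.00 ± 0.06 in the LV were not called. The mitochondrial chaperonin pair Hspd1 and Hspe1 was not called either, with RV log2 fold changes of -0.04 and 0.22 and LV ones of -0.09 and 0.19. Hspd1 counts were 3692 to 3906 in RV Sham and 3122 to 4264 in RV nPAB, and Hspe1 counts 690 to 788 and 782 to 1016. Both sets of ranges overlapped. Hsph1, a heat-inducible cytosolic HSP110 and the only gene set in that family by symbol, had -0.08 in the RV and -0.46 in the LV (limma adjusted p = 0.769 and 0.207).

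Of the chaperones of the ER lumen, Hspa5 and Hsp90b1 fell in both ventricles and Dnajb9 in the RV. Hspa5, which encodes BiP, the HSP70 of the ER, spans chr2:34771970-34777547 (ENSMUSG00000026864). Its RV Sham values were 4131, 4494, 4582, 5485 and 5690, and its RV nPAB values ran from 3378 through 3738 to 4143. The highest banded RV reached just past the lowest Sham RV, and Hspa5 fell by 0.37 on the log2 scale, with an SE of 0.09 (limma adjusted p = 0.00439). LV Sham values were 3845, 4063, 4078, 5133 and 5160, and LV nPAB values ran from 3067 through 3376 to 3924. It fell by 0.37 in the LV too (SE 0.09, limma adjusted p = 0.0136), and without mice 6 and 7 this value was -0.35 (adjusted p = 0.055), no longer called.

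Hsp90b1, the HSP90 of the ER, moved the same way by less. Its RV values were 5081 to 6413 in Sham and 4343 to 5172 in nPAB, at -0.23 ± 0.08 (limma adjusted p = 0.0356). Its LV values were 4537 to 5761 in Sham and 3637 to 4978 in nPAB, at -0.27 ± 0.08 (limma adjusted p = 0.0457). These calls held under 17 of 23 alternatives in the RV and 11 of 23 in the LV. Leaving out any of Sham mice 11, 12 and 13 or nPAB mice 8 and 11 ended the RV call, with adjusted p up to 0.106. Dnajb9, the J protein that brings BiP to misfolded proteins, fell by 0.49 in the RV (SE 0.13, limma adjusted p = 0.0116), from 294 to 390 in Sham to 193 to 318 in nPAB. Its LV value of -0.20 was not called (limma adjusted p = 0.35).

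Not every ER member was lower. Dnajc3, whose window holds an ERSE like those of Hspa5 and Hsp90b1, had -0.07 in the RV and -0.14 in the LV and was not called (limma adjusted p = 0.645 and 0.326). Dnajb11 and Dnajc10, ER J proteins that also serve BiP, had 0.16 and 0.22 in the RV and -0.02 and 0.27 in the LV, and were not called. The fibroblast markers moved alongside in the RV, where 2 of 6 fell (Col3a1 by 0.56 and Pdgfra by 0.45 on the log2 scale). The median summed level was lower there, at 46527 in nPAB and 60883 in Sham. In the LV none of the 6 was called. The summed levels overlapped in both ventricles, narrowly in the RV (Sham from 53836, nPAB up to 54499). The part of fibroblast RNA in the fall of the ER chaperones was not tested.

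**Figure D3:**
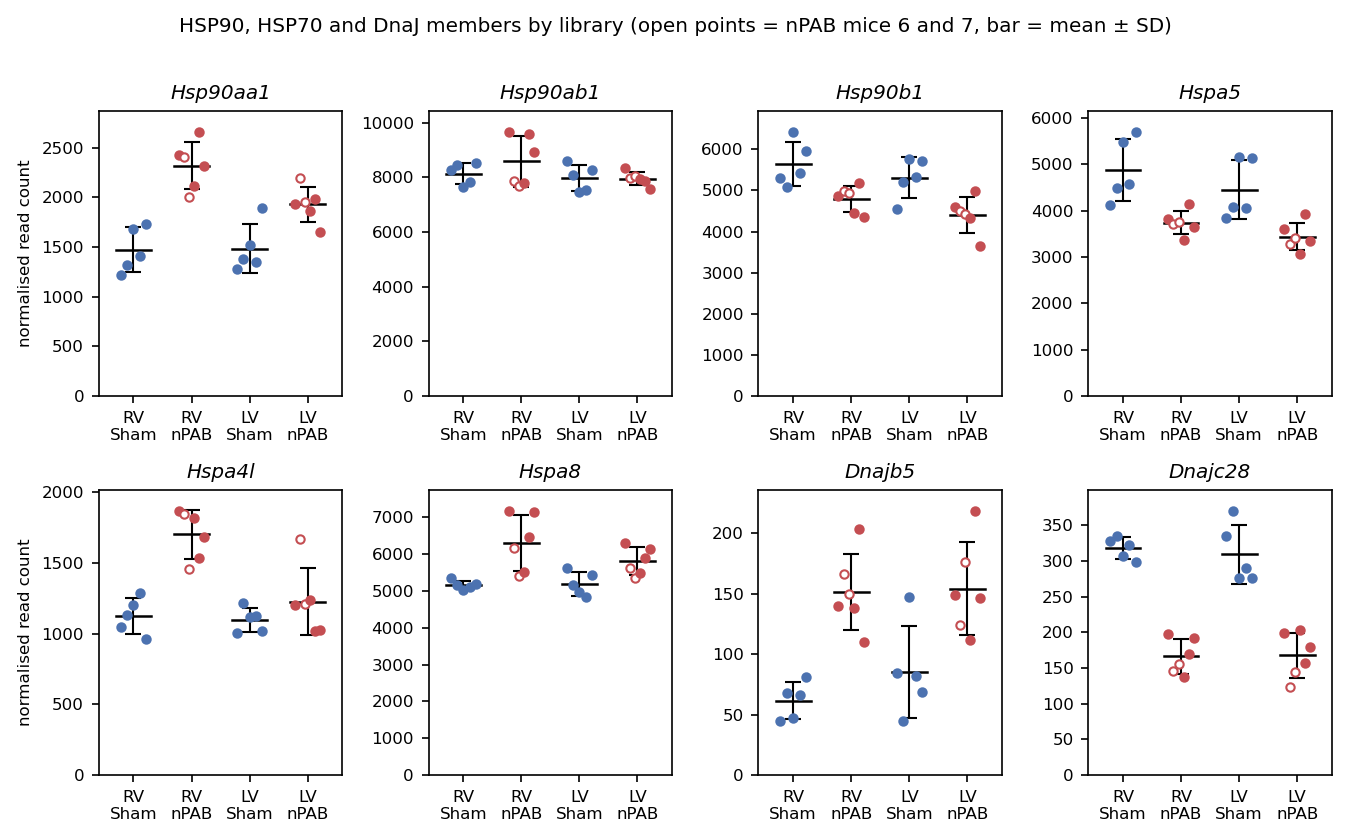
Normalised read count (linear axes from 0) of HSP90, HSP70 and DnaJ genes in RV Sham, RV nPAB, LV Sham and LV nPAB. Points are libraries, open points are nPAB mice 6 and 7, and black bars show mean ± SD. Hsp90aa1 and Dnajb5 sit higher in nPAB, Hspa5 and Dnajc28 lower, while the Hsp90ab1 groups overlap in both ventricles.

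J proteins start the ATP cycle of HSP70 and choose its clients. Among 37 tested, 5 rose and 2 fell in the RV and 4 rose and 1 fell in the LV, with medians of 0.21 and 0.09. The called share was 18.9% beside 22% of all RV genes and 13.5% beside 9.31% of all LV genes, so as a group they lay near the background in the RV. The largest rise was in Dnajb5, a cytosolic class B J protein of low abundance. Its RV Sham values were 44.6, 46.8, 66.1, 68.0 and 81.0, and its RV nPAB values ran from 110 through 145 to 203. The groups were separate, at 1.30 ± 0.20 (limma adjusted p = 1.51e-04). In the LV Dnajb5 was 44.7 to 147 in Sham and 111 to 218 in nPAB, at 0.91 ± 0.25 (limma adjusted p = 0.0260). The single Sham library at 147 overlapped the banded group, and the LV call held under 15 of 23 alternatives, being lost without Sham mouse 9, 10, 12 or 13 and without nPAB mouse 7 or 10.

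The largest fall was in Dnajc28, a J protein of poorly known function on chromosome 16 at 91614254 to 91619026. RV Sham values were 298, 306, 322, 328 and 335, and RV nPAB values ran from 138 through 163 to 198. LV Sham values were 276, 276, 289, 335 and 370, and LV nPAB values ran from 124 through 168 to 203. The groups were separate in both ventricles and the changes nearly equal, at -0.94 ± 0.12 in the RV (limma adjusted p = 3.28e-05) and -0.89 ± 0.15 in the LV (9.01e-04). Dnajc28 was called under all 23 alternatives in each ventricle.

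Smaller rises in the RV were called for Dnajc2, a ribosome-associated J protein (0.51, limma adjusted p = 0.00389), and for Dnaja3, the J protein of the mitochondrial matrix (0.30, adjusted p = 0.0137). Dnajc5, the cysteine string protein of secretory vesicles, rose by 0.26 (limma adjusted p = 0.0394). Dnajb4 rose by 0.23 in the RV and 0.31 in the LV (limma adjusted p = 0.0368 and 0.0410), and without mice 6 and 7 neither value was called (adjusted p = 0.109 and 0.0650). Dnajc5 and the RV call of Dnajb4 held under 14 and 13 of 23 alternatives. The LV call of Dnajb4 was also lost without Sham mouse 9, 10, 11 or 12 and without nPAB mouse 5, 7, 10 or 11. It was lost as well with a sex term, with library weights, with no filter, and with no variance trend or robust option. In the LV alone Dnajc11, a mitochondrial J protein of the cristae complex, and Dnajc25 rose. Dnajc11 was 316 to 366 in LV Sham and 378 to 574 in LV nPAB, at 0.43 ± 0.11 (limma adjusted p = 0.0181). With the mouse as a block its LV call was lost (adjusted p = 0.0501) and its RV value of 0.44, not called at 0.0655, was called (0.0289). Dnajc25 rose by 0.40 (limma adjusted p = 0.0224), and without mice 6 and 7 neither LV call remained (Dnajc11 0.0820, Dnajc25 0.0684).

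Dnajb1, the heat-inducible J protein and usual partner of Hspa1a, was not called: its values were 286 to 423 in RV Sham, 371 to 454 in RV nPAB, 300 to 439 in LV Sham and 292 to 362 in LV nPAB. Its log2 fold changes were 0.17 and -0.04. The other 27 J proteins not called in either ventricle had log2 fold changes between -0.23 and 0.56 in the RV and between -0.45 and 0.37 in the LV.

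The regulators changed little. Hsf1, the main heat shock factor, was 131 to 199 in RV Sham and 137 to 210 in RV nPAB, and 163 to 209 and 155 to 188 in the LV. Its log2 fold changes of -0.07 and -0.04 were not called, nor were those of Hsf2 at -0.01 and 0.22. Bag3, the co-chaperone that couples small heat shock proteins to HSP70, was 1712 to 1950 in RV Sham and 2029 to 2401 in RV nPAB. It rose by 0.23 ± 0.07 in the RV (limma adjusted p = 0.0294), a call that held under 16 of 23 alternatives, and not without Sham mouse 11 or 13, nPAB mouse 7 or 11, or mice 6 and 7 together (0.20, adjusted p = 0.0726). In the LV its value of 0.20 was not called (limma adjusted p = 0.128).

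Among all members matched to a window, printed or not, the genes with the 3-unit HSE (Dnajb6, Hspd1, Hspe1 and Hsph1) were not called in either ventricle. Of all members tested, 43 of 67 in the RV and 52 of 66 in the LV were also not called. Against these shares 4 genes are too few to show a pattern, and Hspd1 and Hspe1 share a start region. Of the 14 RV-risen members with a window, 5 held the 2-unit form (Bag3, Dnajb4, Hspb1, Hspb6 and Hspb8), beside 11 of 34 not called and 0 of 5 that fell. Of the 5 that fell, Hspa5 and Hsp90b1 held an ERSE. The windows of Cryab, Hsp90aa1 and Hspa8 were not used here.

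**Figure D4:**
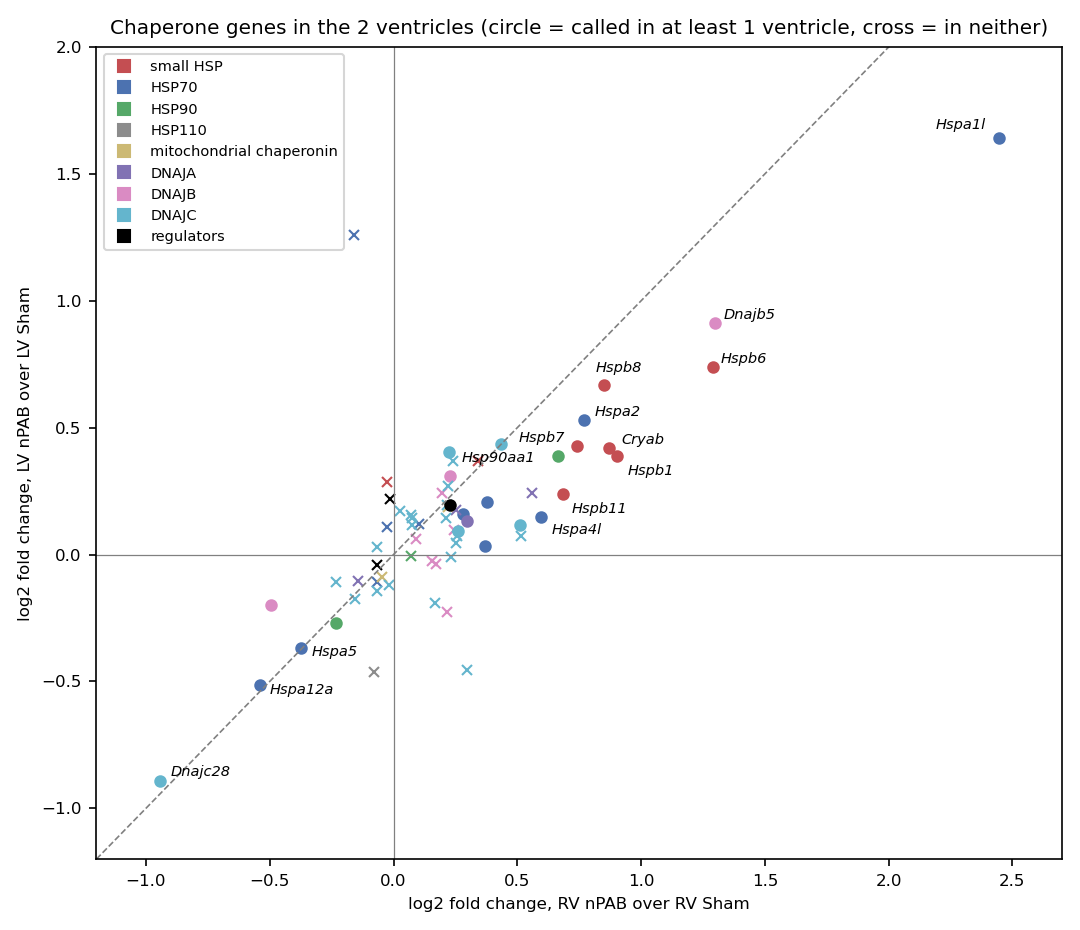
Log2 fold change of nPAB over Sham in the RV (horizontal) and in the LV (vertical) for the 66 members kept in both ventricles, coloured by family. Circles were called in at least 1 ventricle, crosses in neither, and the dashed line marks equal values. Of the 8 small heat shock proteins 6 lie below the line on the right, such as Hspb6 at 1.29 and 0.74, and Hspb2 (-0.03 and 0.29) and Hspb3 (0.34 and 0.37) above it, while Hspa5 and Dnajc28 lie near it on the lower left.

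Other chaperone genes and partners were counted from lists of co-chaperones, ER folding genes, mitochondrial chaperones, cytosolic chaperonins and Z-disc clients. Their called shares are read beside the 22% of all RV genes and 9.31% of all LV genes given above. Of 11 genes tied to BAG3, autophagy and the Z-disc, 5 rose in the RV (45.5%) and 4 in the LV (36.4%), and none fell. In the RV Synpo, an actin-bundling protein, rose by 1.05, the autophagy gene Wipi1 by 0.60 and the BAG3 client Flnc by 0.64. In the LV Synpo rose by 0.68, the intermediate filament gene Des by 0.46 and the Z-disc gene Myoz2 by 0.30. Of 25 co-chaperones 5 rose and 1 fell in the RV (24%), and 2 rose and 1 fell in the LV (12%), shares near those of all genes. The HSP90 immunophilin Fkbp5, a glucocorticoid target, rose by 1.64 in the RV and 1.53 in the LV. Bag2, an inhibitor of client ubiquitination, rose by 0.80 and 0.74. Chordc1, an HSP90 partner, fell by 0.55 in the RV and by 0.40 in the LV.

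Of 26 further ER folding and unfolded protein response genes, 3 rose and 3 fell in the RV (23.1%) and 1 fell in the LV (3.85%). The RV share was near that of all genes. The lectin chaperones Calr and Canx fell by 0.45 and 0.27 in the RV (limma adjusted p = 0.00617 and 0.00698), and the disulfide isomerase P4hb rose by 0.49 (0.00231). In the LV the fall was in Ero1lb, an ER oxidase, by 0.95 (limma adjusted p = 0.0316). Of 14 genes of the TRiC chaperonin, which folds actin and tubulin, and of prefoldin, which feeds it, 5 rose in the RV (35.7%) and 3 in the LV (21.4%), and none fell. Pfdn1 rose by 0.57 and 0.36 and Cct6a by 0.30 and 0.29, with Cct8 at 0.45 in the RV and Cct3 at 0.27 in the LV. Of 14 mitochondrial chaperone and protease genes 1 rose (Afg3l2, 0.38) and 1 fell (Clpx, by 0.26) in the RV (14.3%), and 0 were called in the LV. Among 6 stress transcription factors and partners Atf4, the factor of the integrated stress response, rose by 0.41 in the RV and 0.34 in the LV (limma adjusted p = 0.00387 and 0.0447) as the 1 called gene, or 16.7%, in each.

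Whether the response differed between the ventricles was tested on the log2 RV value minus the log2 LV value of each mouse. By limma 0 of 66 members were called, beside 0.00748% of 13364 genes (1 gene, which fell, while 0% rose). Of the 66, 11 had an unadjusted limma p under 0.05, beside 11% of all genes. By edgeR 10 of the 66 did and by DESeq2 9, beside 12.1% of all genes with each tool. The small heat shock proteins had a median difference in response of 0.38, beside 0.07 over all members and 0.01 over all genes. With count models on the recovered reads, edgeR called 3 members, Hspa4l, Hspb6 and Hspb7, all with a larger rise in the RV, beside 0.509% of genes that rose. DESeq2 called these and Hspb1, beside 0.995% of genes. The call thus depended on the tool. Numbers 6 and 7 of the nPAB group pair libraries of opposite sex and so do not give a difference within 1 animal. Without them limma still called 0 members, and edgeR and DESeq2 each called 6, Hspb1, Hspb6, Hspb7, Cryab, Hsp90aa1 and Hspa4l, all with a larger rise in the RV. All genes that rose were then 1.96% by edgeR and 2.23% by DESeq2. These 2 fits were added after the data were seen.

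In Sham mice the RV minus LV difference of Hspb6 ran from -0.42 through a median of -0.30 to -0.08, and in nPAB mice from -0.05 through 0.30 to 0.63. That of Hspb7 ran from -0.35 through -0.31 to -0.08 in Sham and from -0.05 through 0.08 to 0.13 in nPAB. Without numbers 6 and 7 the nPAB range was 0.13 to 0.63 for Hspb6 and unchanged for Hspb7. These were the 2 members of 66 whose groups did not overlap, beside 1.8% of all genes. The differences in response were 0.55 ± 0.13 for Hspb6 and 0.31 ± 0.09 for Hspb7 (limma adjusted p = 0.156 and 0.281; edgeR 0.00754 and 0.0076). For Hspa4l the Sham differences were -0.10 to 0.20 and the nPAB differences 0.15 to 0.72, at 0.45 ± 0.15 (limma adjusted p = 0.326, edgeR 0.0280). For Cryab they were -0.19 to -0.07 and -0.11 to 0.85, at 0.45 ± 0.15 (limma adjusted p = 0.323, edgeR 0.147). Without numbers 6 and 7 the nPAB differences were 0.56 to 0.72 for Hspa4l and 0.18 to 0.85 for Cryab, above those of Sham. Those of Hspb1 (0.41 to 0.95, Sham -0.18 to 0.03) and Hsp90aa1 (0.18 to 0.48, Sham -0.13 to 0.14) then also lay above Sham. Groups separate more easily with fewer mice, and the share of all genes that separated in this smaller set was not counted. The limma values were then 0.59 for Hspa4l (adjusted p = 0.137) and 0.59 for Cryab (0.125), and the edgeR adjusted p were 1.76e-04 and 2.94e-04.

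Hspa5 showed the other pattern. Its RV minus LV difference was 0.09 to 0.17 in Sham mice and 0.08 to 0.18 in nPAB mice, and 0.08 to 0.14 in the 4 nPAB mice other than 6 and 7, so the ranges of the groups overlapped. The limma difference in response was -0.01 ± 0.08 for Hspa5, 0.04 ± 0.08 for Hsp90b1 and -0.05 ± 0.14 for Dnajc28.

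**Figure D5:**
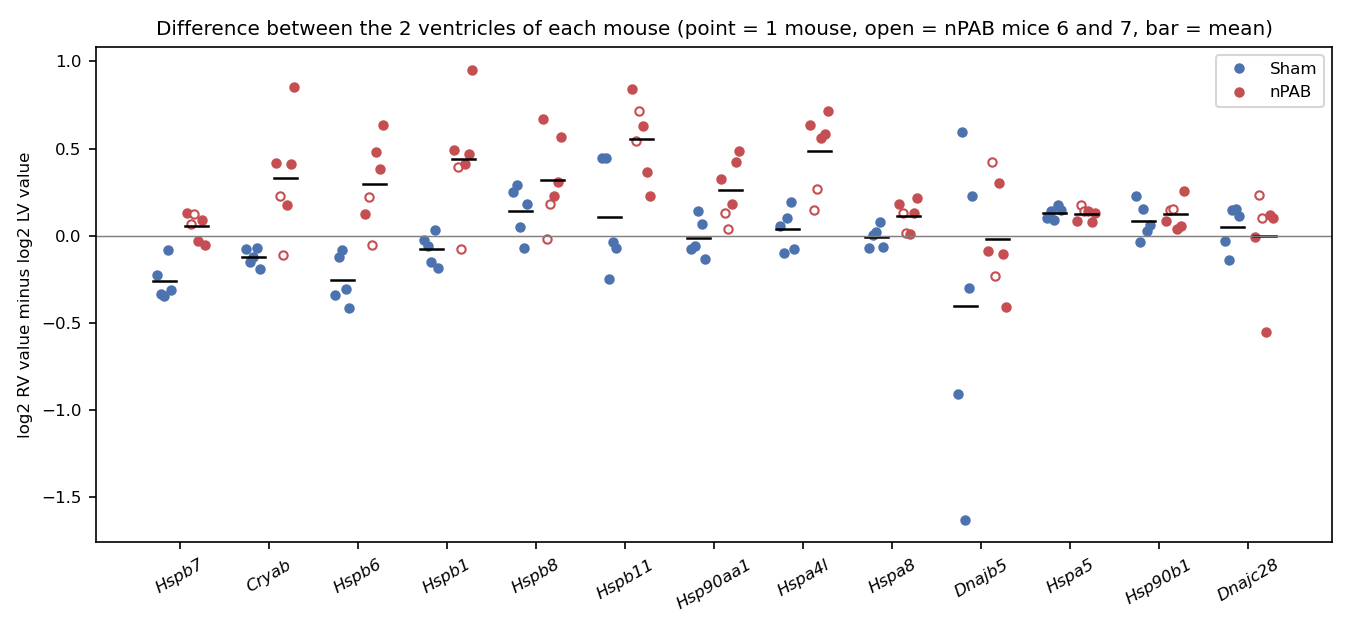
Log2 RV value minus log2 LV value of each mouse for 13 members, with Sham mice in blue and nPAB mice in red. Points are mice, and bars are group means. Open points are nPAB numbers 6 and 7, which each join an RV and an LV library of opposite sex. Hspb6 and Hspb7 lie below 0 in all 5 Sham mice and the nPAB mice lie above them, while Hspa5 sits between 0.08 and 0.18 in both groups.

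The ventricles of Sham mice were set side by side in RPM (reads scaled to the library total) without a test, because each ventricle's table was normalised separately. The RV was lower than the LV in all 5 mice for 4 of 66 members (Hspb7, Hspb6, Cryab and Dnajc17), beside 4.05% of all genes. It was higher in all 5 for 6 members (Hspa5, Dnajb4, Dnajb9, Dnajc10, Dnajc25 and Hspa13), beside 7.45% of all genes. Hspb7 was at 4312 ± 204 RPM in the RV and 5173 ± 323 in the LV (SD, n = 5), without overlap. Cryab was at 1238 ± 48 and 1350 ± 76, and Hspb6 at 549 ± 61 and 656 ± 87. Hspa5 was at 565 ± 79 and 516 ± 70, with each mouse higher in the RV. With TMM scaling over the 22 libraries the lower members were Hspb7, Hspb6, Cryab, Dnajc17, Hspb1 and Bag3, and the higher ones Hspa5, Dnajb4 and Dnajc10.

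Levels of different genes were compared by RPKM (reads scaled to exon length and library total), computed from the recovered reads. In RV Sham Hspb7 led at 1557 ± 74 (SD, n = 5), followed by Cryab at 837 ± 32, Hsp90ab1 at 314 ± 15, Hspb1 at 269 ± 22 and Hspb6 at 239 ± 26. Hspd1, Hsp90b1, Hspa8, Hspa5 and Hspa9 followed between 129 and 166, with neighbours inside or near each other's spread. In RV nPAB Hspb7 was at 2452 ± 270 and Cryab at 1460 ± 306 (SD, n = 6). Hspb6 at 563 ± 157 and Hspb1 at 480 ± 105 then stood above Hsp90ab1 at 310 ± 26, which had been above both in RV Sham. In LV nPAB Hspb6 at 462 ± 99 and Hspb1 at 363 ± 79 stood above Hsp90ab1 at 295 ± 16. In LV Sham Hsp90ab1 at 309 ± 18.5, Hspb6 at 286 ± 38 and Hspb1 at 284 ± 22 lay within their spread of one another. Small heat shock proteins thus took 4 of the 5 highest levels per length in the RV of both groups.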

How the data were processed

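Bulk RNA of both ventricles of 11 mice was sequenced with a Revelo high-sensitivity kit after RNeasy extraction, per the labels' protocols. The values the authors deposited are normalised read counts, here treated as a signal: gene counts divided by 1 DESeq2 size factor per library, with each ventricle's table normalised separately. Reads were trimmed with cutadapt, counted with featureCounts and scaled with DESeq2 on mm10, per the submitters' processing notes. The sources used here name no aligner, version or strand setting. In every library the deposited values were whole multiples of 1 step within a tolerance of 0.001, so the authors' read counts could be recovered.

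Genes with a mean of at least 10 were tested within each ventricle with limma 3.58.1 (R 4.3.3, variance trend and robust options) on log2(value + 1), so fold changes of low genes are understated. Benjamini-Hochberg adjustment ran over all genes tested, with a threshold of 0.05. The difference in response between ventricles was tested on the RV minus LV log2 difference of each mouse. On the recovered reads, edgeR 4.0.16 (quasi-likelihood) and DESeq2 1.42.0 were alternatives. The others were pseudocounts, filters, TMM scaling, library weights, a sex term, no variance trend or robust option, the mouse as a block, each library left out in turn, and nPAB mice 6 and 7 left out (for the count models of the response, added after the data were seen). Both ventricles of a mouse carry its number in the labels, which was used to pair the libraries. For nPAB numbers 6 and 7 the paired libraries were of opposite sex. The RV minus LV difference and the mouse as a block used these pairs too, except where mice 6 and 7 were left out. The deviations of paired libraries from their group means correlated at 0.0548 to 0.383, lowest for nPAB mouse 7. Every pair of replicate libraries differed beyond counting noise (the closest pair had a chi-square of 7.37 for each degree of freedom). Each library was counted as 1 sample by its label, because this comparison cannot show that libraries come from separate animals. RPM and RPKM used the recovered reads with exon lengths of GENCODE vM21. The limma step was also run on simulated counts. These had the same spread setting for every gene and independent libraries, so they do not test the robust option or the pairing.

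Values by library are given for the genes that mark the set, the heads of each family and the called members with the largest fold changes (12 in the RV, 8 in the LV), other called members are named with their fold change, and at most 3 called genes are named per further list and ventricle. The members, lists and rules were chosen with earlier results of these data known.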

Additional observations from a re-analysis of the deposited data

Results flagged for a closer look

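Of 112 groups of values examined, 3 held 1 library set far apart from the others of its group by Dixon's criterion, which chance meets in about 1 of 20 groups. Hspa1l stood at 15.2 normalised reads in the LV library of Sham mouse 11, where the other LV Sham libraries ran from 1.95 to 5.38. Hspa1l stood at 73.0 in the LV library of nPAB mouse 10, where the others ran from 4.84 to 18.4. Hspa4l stood at 1669 in the LV library of nPAB mouse 6, where the others ran from 1021 to 1235. That library is 1 of the 4 from the mice whose ventricles were of opposite sex.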

How the results depend on the processing

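No called member changed sign under any alternative. Among the members singled out by the naming rule alone, 62 values lost and 27 gained a call across the alternatives and 1810 kept their side of the threshold, and further calls were lost among the other members. In the RV, leaving out 1 library at a time gave 20 to 25 members called, 17 to 20 that rose and 3 to 5 that fell, with 3 that fell without Sham mouse 12 or 13. Without the variance trend and robust options 3 fell in the RV, and in the LV 6 were called, 5 rose and 1 fell. Without nPAB mice 6 and 7 the LV counts were also 6 called, 5 that rose and 1 that fell. Leaving out 1 library at a time gave 7 to 14 called, 5 to 11 that rose and 2 to 4 that fell in the LV. The lowest LV counts came without Sham mouse 12 (7 called, 5 rose, 2 fell), followed by Sham mouse 10 (9 called, 6 rose), and 6 rose without Sham mouse 9. With the mouse as a replicate block the RV had 26 called members and the LV 15, and apart from the genes named in the report the block ended no call. For the RV minus LV response edgeR called 3 members and DESeq2 4, all upward, against 0 by limma, 0 with each mouse left out and 0 with no replicate block. Without nPAB mice 6 and 7, fits added after the data were seen, edgeR and DESeq2 each called 6, all upward. With TMM scaling over 22 libraries 3 members were higher in the RV of all Sham mice. The cause of these shifts was not tested. Low counts limit Hspa1a, Hspa1b and Hspa1l, where single reads move the values.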
